A study of Homo sapiens with 12 samples.

Results

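The suppressor of cytokine signalling (SOCS) family comprises SOCS1 to SOCS7 and CISH, and its members were taken by gene symbol from the expression tables of a human proximal tubular cell line. All 8 members were among the 58278 listed genes, and all 8 were among the 24342 genes that passed the filter on low counts. The mRNA of HK2 cells, an immortalised proximal tubular epithelial line from 1 donor kidney, was sequenced in 12 libraries, 2 for each of 6 groups. Untreated cells formed the control group (Ctrl), and cells that received only TNF-α at 5 ng/mL for 3 h formed the TN group. Propionate at 15 mM (PRTN) or butyrate at 3 mM (BUTN) was given for 24 h before the same TNF-α induction, or for 24 h after it (TNPR and TNBU). Both agents are short-chain fatty acids (SCFAs) made by gut bacteria. Every SCFA group also carried TNF-α, so no library shows an SCFA alone, and TNPR and TNBU were harvested later after TNF-α than TN was.

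SOCS proteins are feedback inhibitors of cytokine signalling. A cytokine receptor activates Janus kinases (JAKs), these phosphorylate STAT transcription factors, and STATs switch on genes that include several SOCS genes themselves. Each SOCS protein holds an SH2 domain, which binds phosphorylated tyrosine on its target, and a SOCS box, which brings in elongins and a cullin ubiquitin ligase. SOCS1 and SOCS3 can also block JAK activity directly. TNF-α itself signals chiefly through NF-κB and MAP kinases, while the IL-6 family of cytokines that it induces signals through gp130, JAKs and STAT3. In the kidney tubule SOCS3 is known as an injury-responsive member.

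The 250 bases before the RefSeq start of CISH are shown because CISH fell in every SCFA group and its window held more copies of the STAT dimer motif than that of any other member. Those of SOCS3, which moved the opposite way, are set beside them. The motif searched was TTCNNNGAA, which reads the same on both strands, and capitals mark its matches. The CISH window is chr3:50611775-50612024. SOCS3 has 2 RefSeq starts, and the window shown is that of the outer one, chr17:78360926-78361175, which lies beyond the 5′ end of the GENCODE 44 gene, while that of the inner start is chr17:78359668-78359917. All are on the minus strand of GRCh38.p14, and the sequences read 5′ to 3′.
CISH: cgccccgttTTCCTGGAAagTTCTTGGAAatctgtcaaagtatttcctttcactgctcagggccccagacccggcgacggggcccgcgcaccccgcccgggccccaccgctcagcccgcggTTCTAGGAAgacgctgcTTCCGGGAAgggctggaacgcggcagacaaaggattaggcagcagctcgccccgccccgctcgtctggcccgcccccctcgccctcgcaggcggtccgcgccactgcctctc
SOCS3: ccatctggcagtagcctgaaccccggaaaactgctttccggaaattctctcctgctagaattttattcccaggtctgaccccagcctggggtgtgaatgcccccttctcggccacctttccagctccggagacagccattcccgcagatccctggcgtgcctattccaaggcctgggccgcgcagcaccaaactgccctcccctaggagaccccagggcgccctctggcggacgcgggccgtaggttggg
The CISH window held 4 matches that did not overlap, TTCCTGGAA, TTCTTGGAA, TTCTAGGAA and TTCCGGGAA, whose first bases lay 241, 230, 129 and 112 bases before the start. Of 35116 RefSeq windows of this length, 2306 (6.57%) held at least 1 match and 5 (0.0142%) held 4 or more. Windows were found for 5 members, SOCS1, SOCS3, SOCS4, SOCS6 and CISH, and the other 4 of these held no match, SOCS3 in either of its windows. The inner SOCS3 window lies inside the GENCODE 44 gene, whose 5′ end is chr17:78360077. The bases directly before that end lie in neither SOCS3 window and were not searched, so a match there is not excluded. SOCS2, SOCS5 and SOCS7 were not among the entries. A match is a stretch of letters and not a measured binding site.

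Libraries held 27269986 to 33851130 expected counts (median 30545923), so that 3 counts corresponded to 0.0867 to 0.112 CPM (counts scaled to the library total). Levels are given as CPM with trimmed mean of M values (TMM) factors, and differences as log2 fold changes from limma-voom. Calls needed both a fold change above 1.5 and an adjusted p (Benjamini-Hochberg over all 24342 genes) below 0.05. With 2 cultures a group, errors below are SD over n = 2 unless a standard error (SE) is named. The summed level of 18 proximal tubule and epithelial markers was 3375 to 4665 CPM, with SLC22A6 at 0 in all libraries and LRP2 and HNF4A at 0 in Ctrl and TN. VIM, which is not specific to epithelial cells, alone held 1278 to 1967 CPM of that sum, while CDH1 measured 0.0745 to 0.294 CPM in Ctrl and TN. The summed level of 12 leukocyte markers was 29.1 to 54.0 CPM, with MS4A1 at 0 and most of it from CD68 (23.1 to 48.8 CPM). The sum of 12 endothelial and fibroblast markers averaged 59.4 CPM in Ctrl and 54.0 CPM in TN but 219 to 253 CPM in the SCFA groups. Against TN, 9 or 10 of its 11 tested genes were called higher in each SCFA group, COL1A1 among them, and 1 lower. So were 9 or 10 of 16 epithelial markers, such as CDH1 and KRT19, while 3, PAX8, GGT1 and CDH2, were called lower. PAX8 averaged 403 CPM in TN and 131 to 158 CPM in the SCFA groups. GGT1 averaged 194 CPM against 63.9 to 72.4 CPM, and CDH2 308 CPM against 145 to 155 CPM. Of 7 leukocyte markers, 3 or 4 were called higher, with PTPRC at most 0.152 CPM. Over all genes, 23.1% to 25% were called higher and 14.8% to 16.9% lower in these comparisons. These marker changes ran alongside every SCFA difference below, and their part in them was not tested. Replicates lay farthest apart in TNPR and TNBU, with a median absolute log2 difference over genes of 0.202 and 0.232 against 0.116 to 0.153 in the other groups.

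The family spanned a wide range of levels in untreated cells. Per kb of merged exon, SOCS3 stood first at 14.9 ± 0.436 CPM per kb and SOCS4 second at 11.98 ± 0.180 CPM per kb. They were followed by SOCS6 at 5.65 ± 0.0909 and SOCS5 at 3.89 ± 0.000466 CPM per kb, then by CISH at 2.97 ± 0.101 and SOCS7 at 1.92 ± 0.116 CPM per kb. SOCS1 at 0.676 ± 0.0765 and SOCS2 at 0.564 ± 0.0711 CPM per kb came last, with a gap between their means of about the size of their SDs. The gaps between the other neighbours exceeded their SDs. On the length of the longest transcript the order of SOCS5 and SOCS6 turned (6.11 against 5.79 CPM per kb), as did that of SOCS2 and SOCS1 (0.979 against 0.677 CPM per kb). In TNPR the order below SOCS3 and SOCS4 changed. SOCS7 at 3.77 ± 0.196 CPM per kb of merged exon then stood above CISH at 0.941 and SOCS5 at 3.17 CPM per kb. It lay within the SD of SOCS6, at 3.82 ± 0.336 CPM per kb. On the longest transcript SOCS5 stayed above SOCS7 in TNPR (4.98 against 4.11 CPM per kb).

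**Figure D1:**
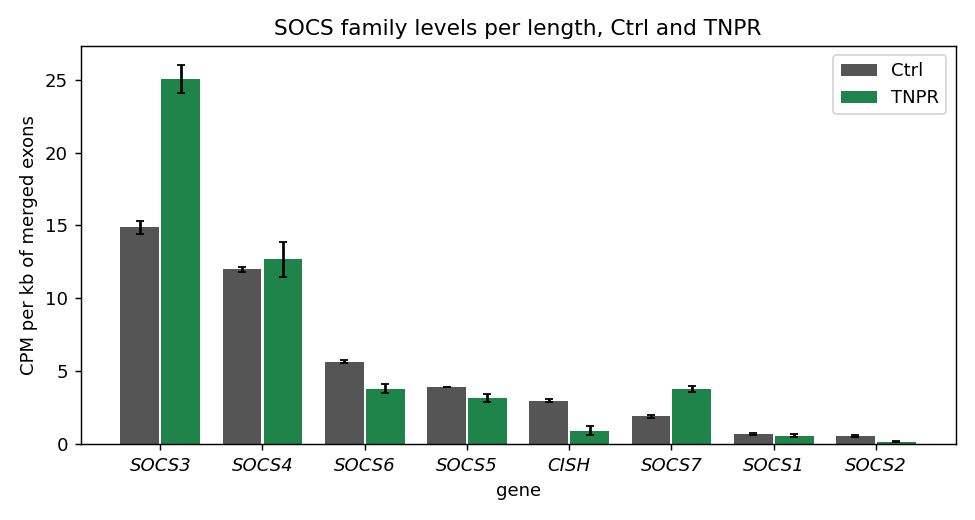
CPM per kb of merged exon (vertical axis) for each SOCS family gene (horizontal axis) in Ctrl and TNPR, as means of 2 libraries with SD bars. SOCS3 was 14.9 in Ctrl and 25.0 in TNPR, CISH 2.97 and 0.941, and SOCS7 1.92 and 3.77.

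Against the untreated cells, TNF-α for 3 h left every member uncalled. None of the 8 members was called by limma-voom, while 0.764% of all genes were called higher and 0.534% lower in TN. At an unadjusted p under 0.05 limma-voom picked 3 members, edgeR 3 and DESeq2 2, none past the 1.5-fold limit. Past both of these limits limma-voom held 527 of the 24342 genes higher and 719 lower. The share of all genes at that p alone is not given. The 3 members picked by limma-voom were SOCS3 and CISH, with lower values in TN, and SOCS6, with higher values. SOCS6, known to bind activated receptor kinases and insulin receptor substrates, measured 33.4 and 32.6 CPM in Ctrl against 44.3 and 42.1 CPM in TN (log2 fold change 0.39 ± 0.11 SE, adjusted p = 0.0879). SOCS3 measured 41.5 and 39.8 CPM against 31.5 and 33.5 CPM (-0.32 ± 0.10 SE, adjusted p = 0.0964). CISH measured 15.4 and 14.7 CPM against 10.9 and 12.3 CPM (-0.38 ± 0.13 SE, adjusted p = 0.157). In each of these 3 genes, and also in SOCS5, both TN libraries lay on one side of both Ctrl libraries. The share of all genes that separated in this way is not given, so no weight is put on it. The response to TNF-α was present in the same libraries, since ICAM1, an adhesion molecule gene, rose by 1.48 ± 0.06 (SE) on the log2 scale (adjusted p = 2.62e-07).

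The SCFA groups differed from TN in a much larger share of the transcriptome, and the family moved in both directions. In PRTN, 1 member rose and 2 fell, against 23.9% of all genes called higher and 16.7% lower. In BUTN the counts were again 1 and 2, against 23.1% and 14.8%. In TNPR, 2 members rose and 3 fell, against 24.9% and 16.9%, and in TNBU also 2 rose and 3 fell, against 25% and 16.5%. Out of 8 members the falls lay above the background share in each comparison, and the rises below or about at it. With so few members, a difference of the family as a set was not tested. The median log2 fold change over the members was -0.03 for PRTN, -0.12 for BUTN, -0.33 for TNPR and -0.30 for TNBU. Over all genes it was 0.09, 0.08, 0.12 and 0.09. The 4 comparisons share the 2 TN libraries. Because whole cultures were sequenced, fewer cells of one kind and less mRNA per cell cannot be told apart.

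**Figure D2:**
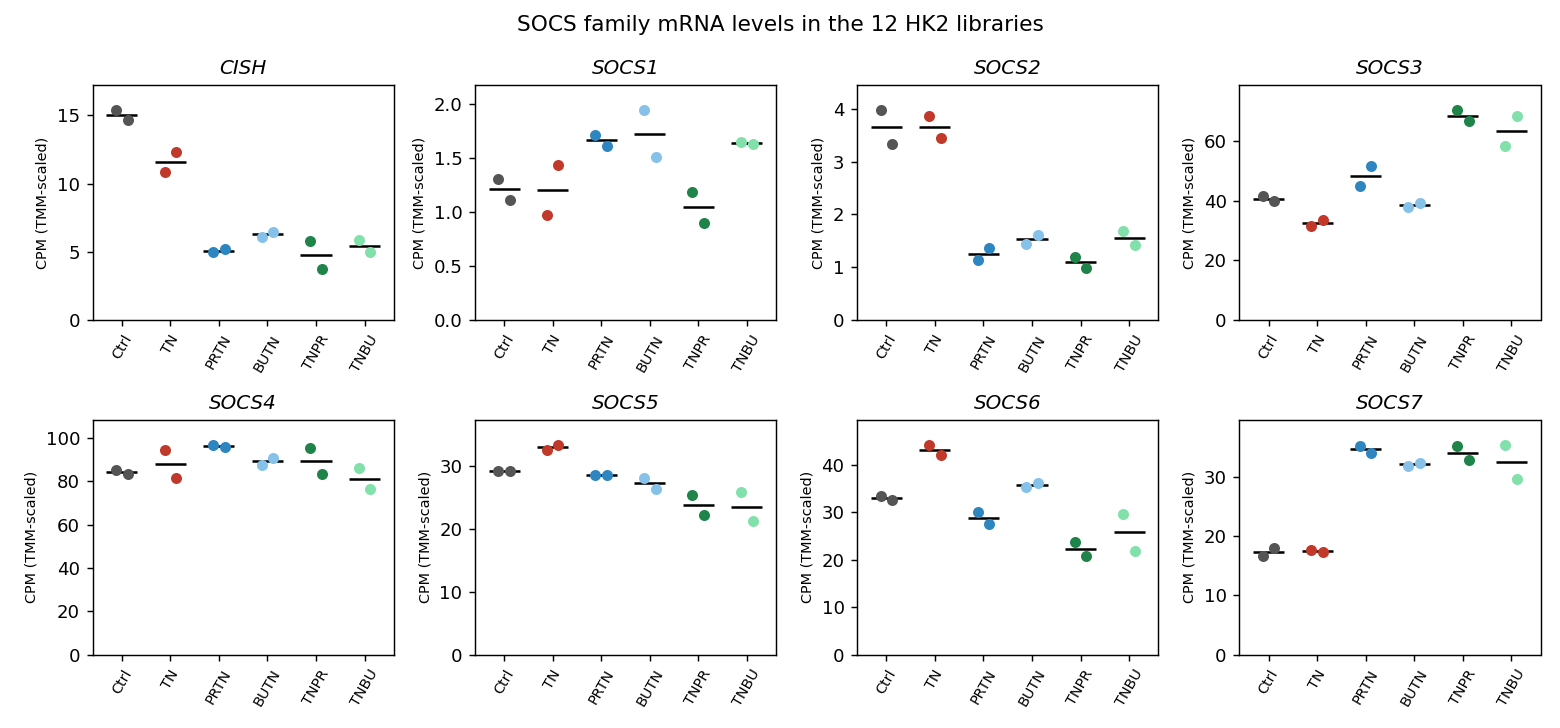
CPM (vertical axes, from 0) of each SOCS family gene in the 2 libraries of each of the 6 groups (horizontal axes), with lines at group means. CISH and SOCS2 were lower and SOCS7 higher in all 8 SCFA libraries than in Ctrl and TN, and SOCS3 reached 58.2 to 70.3 CPM in TNPR and TNBU.

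CISH and SOCS2 are the members best known as STAT5 target genes that feed back on growth hormone, prolactin and related receptors. Both fell in all 4 SCFA groups. CISH (ENSG00000114737.15, chr3:50606489-50611774, minus strand, GRCh38 with GENCODE 44 coordinates) measured 10.9 and 12.3 CPM in TN. With propionate it measured 4.98 and 5.17 CPM (PRTN) and 5.78 and 3.74 CPM (TNPR), and with butyrate 6.10 and 6.47 CPM (BUTN) and 5.89 and 4.98 CPM (TNBU). Every SCFA library lay below every TN and Ctrl library, and the 4 SCFA groups lay close to each other. The log2 fold changes against TN were -1.19 ± 0.16 for PRTN, -0.88 ± 0.15 for BUTN, -1.30 ± 0.16 for TNPR and -1.10 ± 0.16 for TNBU (SE, adjusted p at most 0.000322). CISH shares 218 exon bases with MAPKAPK3 on the opposite strand, and the libraries were made with a stranded kit.

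SOCS2 (ENSG00000120833.13, chr12:93569814-93583487, plus strand), the negative regulator of growth hormone signalling, was the member with the steepest fall. It measured 3.87 and 3.44 CPM in TN and 3.98 and 3.33 CPM in Ctrl. With propionate it measured 1.13 and 1.37 CPM (PRTN) and 1.18 and 0.991 CPM (TNPR), and with butyrate 1.44 and 1.62 CPM (BUTN) and 1.68 and 1.43 CPM (TNBU). The groups with and without SCFA did not overlap, whereas TN and Ctrl did. The log2 fold changes against TN were -1.55 ± 0.20 for PRTN, -1.25 ± 0.19 for BUTN, -1.73 ± 0.21 for TNPR and -1.23 ± 0.20 for TNBU (SE, adjusted p at most 0.000177). These levels rested on 31 to 116 counts a library. The antisense gene SOCS2-AS1, which shares 277 exon bases with it, held 0 to 8 counts a library.

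SOCS7 (ENSG00000274211.4, chr17:38351844-38405593, plus strand), a member linked to insulin signalling, rose in all 4 SCFA groups. It measured 17.6 and 17.2 CPM in TN and 16.6 and 18.03 CPM in Ctrl. Propionate libraries held 35.2 and 33.9 CPM (PRTN) and 35.2 and 32.7 CPM (TNPR), and butyrate libraries 31.8 and 32.3 CPM (BUTN) and 35.3 and 29.7 CPM (TNBU). The lowest SCFA library, the second of TNBU, stood well above the highest library without SCFA. The log2 fold changes against TN were 0.99 ± 0.09 for PRTN, 0.88 ± 0.09 for BUTN, 0.96 ± 0.09 for TNPR and 0.89 ± 0.10 for TNBU (SE, adjusted p at most 6.15e-06).

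SOCS3 (ENSG00000184557.4, chr17:78356778-78360077, minus strand), the inhibitor of signalling through gp130, rose where the SCFA followed TNF-α. It measured 70.3 and 66.6 CPM in TNPR and 58.2 and 68.5 CPM in TNBU, against 31.5 and 33.5 CPM in TN. Where the SCFA came first it measured 45.0 and 51.6 CPM in PRTN and 37.8 and 39.1 CPM in BUTN. All 8 SCFA libraries lay above both TN libraries, but the BUTN libraries lay below both Ctrl libraries. The log2 fold change against TN was 1.07 ± 0.09 in TNPR (SE, adjusted p = 6.5e-07) and 0.96 ± 0.09 in TNBU (adjusted p = 2.12e-06). The values 0.57 ± 0.09 in PRTN (adjusted p = 0.000204) and 0.24 ± 0.10 in BUTN (adjusted p = 0.0472) stayed under 1.5-fold and were not called. Under scaling by library size alone SOCS3 was also called in PRTN, at 0.72.

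SOCS6 (ENSG00000170677.5, chr18:70289045-70330199, plus strand) fell where the SCFA followed TNF-α. Against 44.3 and 42.1 CPM in TN, it measured 23.7 and 20.9 CPM in TNPR and 29.7 and 21.9 CPM in TNBU. It measured 30.1 and 27.5 CPM in PRTN and 35.3 and 36.3 CPM in BUTN. All 8 SCFA libraries lay below both TN libraries, and the TNBU libraries lay far apart from each other. The log2 fold change was -0.95 ± 0.12 in TNPR (SE, adjusted p = 1.54e-05) and -0.76 ± 0.12 in TNBU (adjusted p = 0.000104). The call in TNBU was lost without its second replicate (-0.56) and under scaling by library size alone (-0.57). PRTN, at -0.58 ± 0.11 (adjusted p = 0.000689), fell just short of 1.5-fold, and BUTN, at -0.27 ± 0.11, had an adjusted p of 0.054.

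The remaining members were not called in any SCFA group. SOCS4 (ENSG00000180008.8, chr14:55027230-55049489, plus strand), linked with SOCS5 to turnover of the EGF receptor, was the steadiest. It ranged from 76.2 to 96.8 CPM over the 12 libraries, and its log2 fold changes against TN ran from -0.11 to 0.14, with 95% intervals between -0.31 and 0.33. SOCS5 (ENSG00000171150.7, chr2:46698952-46780245, plus strand) measured 32.5 and 33.3 CPM in TN and lay lower in every SCFA library, down to 22.2 CPM in TNPR and 21.2 CPM in TNBU. Its log2 fold changes of -0.47 ± 0.09 in TNPR (SE, adjusted p = 0.000864) and -0.49 ± 0.10 in TNBU (adjusted p = 0.000701) stayed under 1.5-fold. SOCS5 shares 160 exon bases on the same strand with LINC01118, so their counts may be split between them.

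SOCS1 (ENSG00000185338.4, chr16:11254417-11256204, minus strand), the main brake on interferon-γ signalling, was near the low end, with 26 to 62 counts a library. It measured 1.30 and 1.11 CPM in Ctrl and 0.968 and 1.44 CPM in TN. The propionate libraries held 1.71 and 1.61 CPM (PRTN) and 1.18 and 0.895 CPM (TNPR), the butyrate libraries 1.94 and 1.503 CPM (BUTN) and 1.65 and 1.63 CPM (TNBU). PRTN, BUTN and TNBU lay above both TN libraries, and TNPR overlapped them. The log2 fold changes against TN were 0.48 (PRTN), 0.51 (BUTN), 0.46 (TNBU) and -0.19 (TNPR), with SEs of 0.25 to 0.28, and the lowest adjusted p was 0.106. The 95% intervals lay between -0.80 and 1.07, and each took in a 1.5-fold change. Under scaling by library size alone SOCS1 was called higher in PRTN, BUTN and TNBU.

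**Figure D3:**
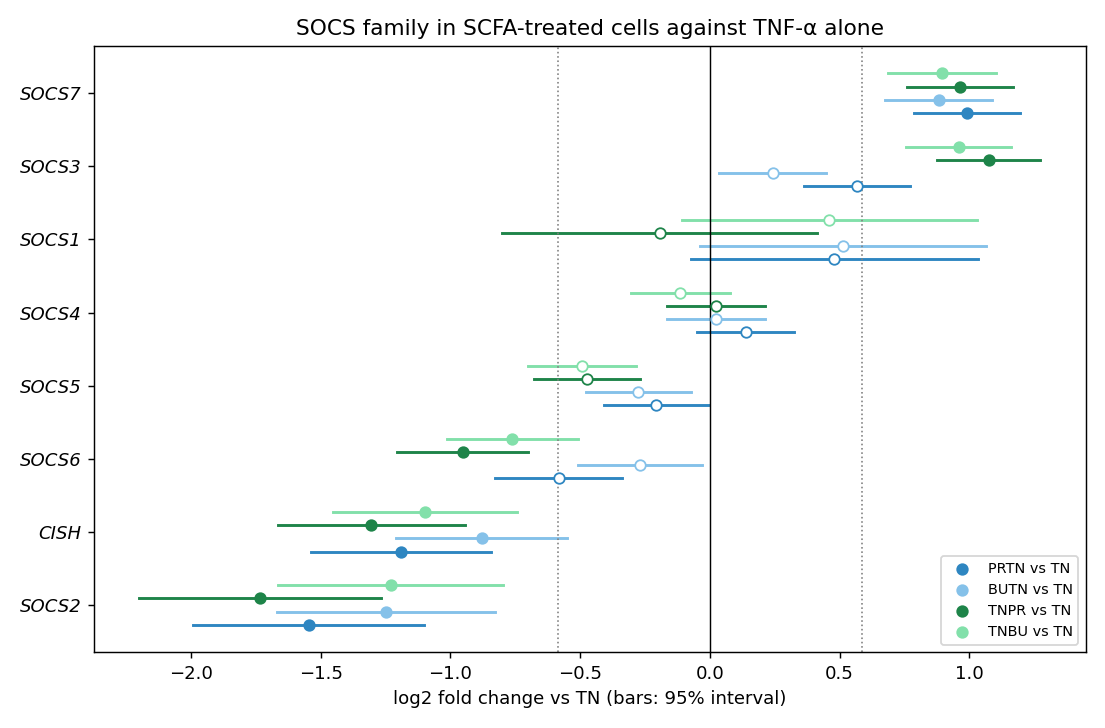
Log2 fold change against TN (horizontal axis) of each SOCS family gene (vertical axis) in the 4 SCFA groups, with 95% intervals. Filled points were called and dotted lines mark 1.5-fold. SOCS2 lay lowest, at -1.73 in TNPR, and SOCS3 highest, at 1.07 in TNPR.

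Set against the untreated cells, the SCFA groups gave a similar picture for SOCS7, CISH and SOCS2. In PRTN, 1 member rose and 2 fell, where 22.6% of all genes were called higher and 16.9% lower. In BUTN, 1 rose and 2 fell, against 22% and 14.9%. In TNPR, 2 rose and 2 fell, against 23.6% and 16.8%, and TNBU gave the same counts, against 23.6% and 16.5%. CISH had its lowest value here, -1.68 ± 0.16 (SE) in TNPR (adjusted p = 1.69e-06). SOCS3 rose by 0.75 ± 0.09 in TNPR and 0.64 ± 0.09 in TNBU (SE, adjusted p at most 5.87e-05), and its call in TNBU was lost without the second TNBU library (0.51). In PRTN and BUTN its values against Ctrl were 0.25 ± 0.09 and -0.08 ± 0.09. SOCS6 was not called, with -0.57 ± 0.12 in TNPR and -0.38 ± 0.12 in TNBU. These comparisons share the 2 Ctrl libraries.

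Giving the SCFA after rather than before TNF-α changed few genes. Propionate after against before (TNPR against PRTN) gave 0.0534% of all genes higher and 0.107% lower, and no member was called by limma-voom, edgeR or DESeq2. At an unadjusted p under 0.05 limma-voom and edgeR each picked 4 members and DESeq2 3, and in limma-voom SOCS1 alone of these passed the fold limit (-0.67 ± 0.25 SE, adjusted p = 0.35). Past both of these limits limma-voom held 566 of the 24342 genes higher and 377 lower. The share of all genes at that p alone is not given. Butyrate after against before (TNBU against BUTN) gave 0.0945% higher and 0.173% lower, and 1 member, SOCS3, rose. SOCS3 differed by 0.72 ± 0.09 for butyrate (SE, adjusted p = 0.00451), and ranked 18 by p among the 24342 genes. For propionate its difference was 0.51 ± 0.09 (SE, adjusted p = 0.038), under 1.5-fold. With only the 2 groups compared in the fit, the adjusted p rose to 0.107 for butyrate and 0.286 for propionate. Without the first or the second BUTN library it was 0.0791 or 0.0623 for butyrate. For propionate it was no longer under 0.05 when any of 10 of the 12 libraries was left out, all but the TNBU libraries, and reached 0.445 without the first PRTN library. The order of the agents and the time since TNF-α cannot be told apart in this pair of comparisons.

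The kinases and transcription factors that SOCS proteins act on were also measured. Of 4 Janus kinases, 1 rose and 2 fell against TN in each SCFA group, beside 23.1% to 25% of all genes called higher and 14.8% to 16.9% lower. JAK1, the kinase shared by most cytokine receptors, measured 1157 and 1127 CPM in TN and 381 to 460 CPM over the SCFA libraries (log2 fold changes -1.45 to -1.37). JAK3, the partner of the common γ chain, went from 20.3 and 18.5 CPM to 2.14 to 4.72 CPM (-2.93 to -2.19). JAK2, the kinase of growth hormone and erythropoietin receptors, rose from 2.94 and 2.51 CPM to 4.10 to 5.01 CPM (0.63 to 0.82). Its call held in TNBU with any library left out, but was lost in PRTN without its first or the second TN library, in BUTN without its second library and in TNPR without any of 8 libraries. Of 6 STAT factors in the list, 1 rose and 3 fell in each SCFA group, beside the same shares. STAT3, which transmits IL-6 family signals, was the one that rose (0.90 to 1.09). STAT5A, STAT5B and STAT6 fell. STAT5A, which drives CISH in other cell types, measured 19.7 and 20.9 CPM in TN and 4.03 to 8.89 CPM over the SCFA libraries (-2.19 to -1.21). STAT6, the factor of IL-4 signalling, changed by -2.33 to -1.74. STAT4 was the only one of these called in TN against Ctrl (-0.85 ± 0.09 SE, adjusted p = 0.000193).

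The SOCS box acts through elongins, a cullin and a RING protein. Of 6 subunits, 1 rose and 3 fell in each SCFA group, again beside 23.1% to 25% of all genes higher and 14.8% to 16.9% lower. RBX1 and RNF7, the RING proteins, changed by -0.98 to -0.81 and -0.89 to -0.73. CUL5, the cullin of the SOCS box, changed by -0.91 to -0.61. ELOB, elongin B, rose (0.69 to 0.79), and ELOC and CUL2 were not called. Among other JAK-STAT inhibitors, 9 of 10 were tested. PTPN1, a phosphatase of JAK2 and TYK2, rose in each SCFA group (0.72 to 0.95), and PIAS2, a SUMO ligase of the PIAS family, fell (-1.09 to -0.99). PTPN11 fell in TNPR and TNBU and SH2B3 in TNBU. Both calls in TNBU were lost without its second library (-0.51 each). In BUTN, CUL5 (-0.58) and ELOB (0.58) were no longer called without the first TN library, nor CUL5 without the first BUTN library (-0.58). ELOB in TNPR was lost without its second library (0.56).

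**Figure D4:**
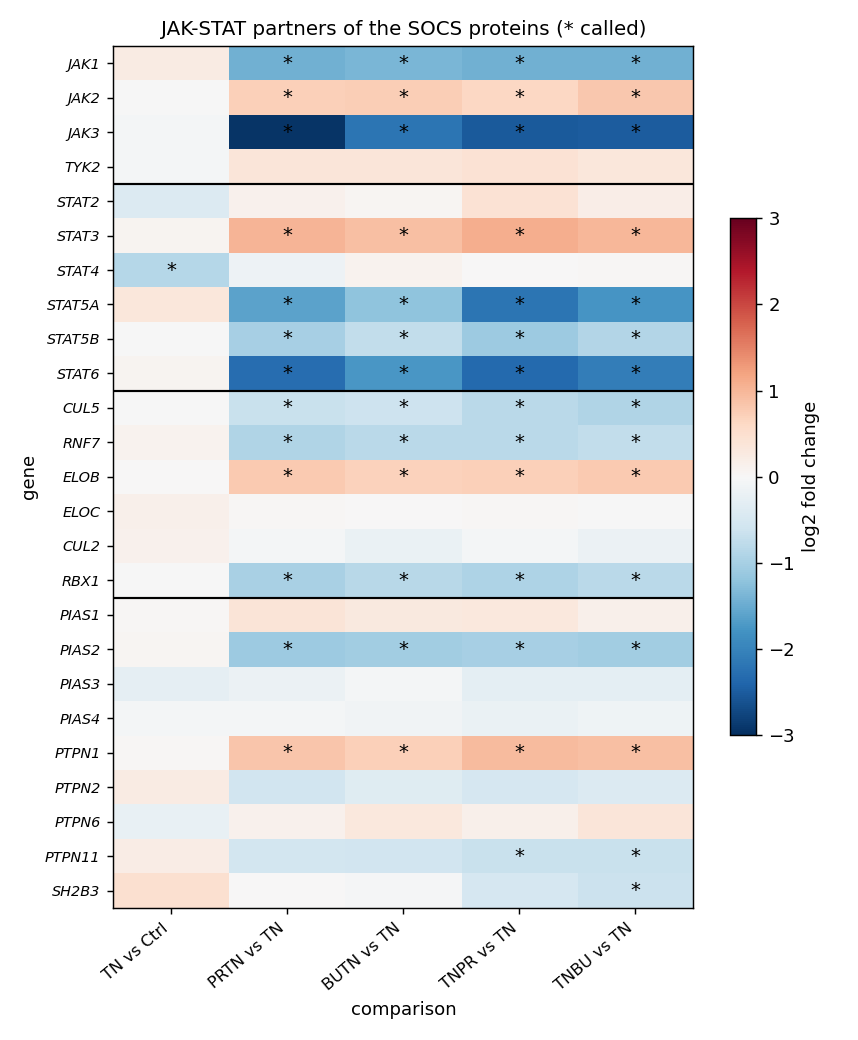
Log2 fold change (colour, from -3 to 3) of 25 JAK-STAT partner genes (vertical axis) in TN against Ctrl and in the 4 SCFA groups against TN (horizontal axis), with asterisks for called genes and lines between Janus kinases, STAT factors, SOCS-box ligase subunits and other inhibitors. JAK3 in PRTN was the lowest value, at -2.93, and TN against Ctrl held 1 call, STAT4.

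Upstream of these lie the cytokines and their receptors. Of 18 tested JAK-STAT ligands, 4 rose in TN against Ctrl, where 0.764% of all genes were called higher, namely IL6, CSF2, IL11 and LIF, by 1.55, 1.24, 0.71 and 0.61 on the log2 scale. Against TN all 4 fell in every SCFA group, with IL6 at -3.40 to -2.78 and LIF at -2.25 to -1.58. Over the list, 4 ligands rose and 7 fell with either SCFA given first, while 5 rose and 7 fell in TNPR and 4 and 8 in TNBU, beside 23.1% to 25% of all genes higher and 14.8% to 16.9% lower. CSF2, encoding GM-CSF, changed by -6.74 to -4.99 and CLCF1, a gp130 ligand, by -4.07 to -3.46. Of 32 tested receptor subunits, 4 rose in TN, namely IFNGR1 (0.82), IFNAR2 (0.72), IFNGR2 (0.62) and IL7R (0.59). IFNAR2, IFNGR2 and IL7R were called lower than TN in every SCFA group, and IFNGR1 in each but BUTN. Against TN, 12 receptor subunits rose and 11 fell in PRTN and TNBU, 12 rose and 10 fell in BUTN, and 11 moved each way in TNPR, beside those same shares of all genes. IL2RB, the β chain of the IL-2 receptor, measured 0.596 and 0.610 CPM in TN and 6.25 to 11.04 CPM over the SCFA libraries. IL21R and IL3RA were under 3 counts in both TN libraries and reached 2.85 to 4.39 and 1.38 to 1.93 CPM in the SCFA libraries.

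Genes that STATs are known to switch on did not move as one. Of 23 tested, 4 rose in TN, beside 0.764% of all genes, namely ICAM1 (1.48), GBP1 (0.97), PIM2 (0.75) and CCND1 (0.64). Against TN, 3 rose and 7 fell in PRTN while 5 rose and 7 fell in BUTN. In TNPR 3 rose and 8 fell, and in TNBU 4 rose and 8 fell. The shares of all genes were 23.1% to 25% higher and 14.8% to 16.9% lower, both here and for the next list. GBP1, an interferon-induced GTPase, changed by -4.09 to -3.78, CEBPD by -2.81 to -2.44 and FOS by 1.73 to 2.65. Of 12 tested receptor tyrosine kinases and insulin-signalling partners, 3 rose and 2 fell in PRTN while 4 rose and 1 fell in BUTN. In TNPR 3 moved each way, and in TNBU 4 rose and 3 fell. EGFR changed by -0.90 to -0.65, and IRS1, an insulin receptor substrate, by 0.63 to 0.78. MET ranged from -0.91 to -0.44 and was not called in BUTN.

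The members fell into patterns that recurred across libraries. Over the 12 libraries, the log2 CPM of CISH and SOCS2 had a Pearson r of 0.96, and SOCS7 had r of -0.93 with CISH and -0.95 with SOCS2. SOCS3 and SOCS6 had r of -0.96 with each other. SOCS1 stayed within -0.27 and 0.41 of every other member. These values describe 12 libraries that separate mainly into those with and without SCFA. Among 4111 or 4112 variable genes, those most like SOCS7 were SYNPO2 (r = 0.996), ADARB1 (0.995) and TEX15 (0.995). Those most like SOCS2 were ZNF181 (0.990), SDR42E1 (0.990) and ZFP30 (0.989), and those most like CISH were SLC35E2B (0.990), PRR12 (0.989) and ZNF618 (0.988). SOCS6 was closest to ZC3H12C (0.971), CXCL3 (0.964) and MAP3K8 (0.941). SOCS3 had less close matches, with MIR503HG at 0.932, PHACTR3 at 0.904 and RP5-908M14.9 at 0.903.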

How the data were processed

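The authors sequenced stranded poly(A) libraries of HK2 cells, aligned reads to GRCh38 (STAR 2.6.1a, with FastQC 0.11.5 per the labels) and deposited expected counts per gene from RSEM, of which 19.3% were not whole. Groups followed the source names. The treatment text of the labels names thapsigargin and JQ1 instead, and was not used.

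Expected counts of the 12 libraries were fitted in 1 model with limma-voom (limma 3.58.1, edgeR 4.0.16 for TMM factors, R 4.3.3), after keeping genes whose geometric mean of count + 1, minus 1, was at least 1. This removed 33936 genes. The steps were tested on simulated data. Alternatives were edgeR, DESeq2 1.42.0 on rounded counts, other scalings and filters, only the groups compared, a replicate block, other thresholds and each library left out. Over all kept genes, the deviations of replicate 1 from its group mean were hardly correlated between groups (highest correlation 0.0670 over 15 pairs of groups). Genes with few counts weighed as much as others in this, and a replicate effect shared by part of the genes was not tested. Exon lengths and coordinates came from GENCODE 44 and promoters from RefSeq.

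The members and gene lists were chosen with earlier results of these data known. All 8 members are named. From each list the text names genes called in TN against Ctrl, and the 3 with the largest mean change against TN among called genes of at least 1 CPM. For called members it names the 3 most correlated genes. STAT5B, ELOB, ELOC, CUL2, SH2B3, VIM, PAX8, GGT1, CDH2, CD68 and the markers named at 0 or near it lie outside that rule and were chosen after their values were seen. Some listed genes are not reported here.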

Additional observations from a re-analysis of the deposited data

Results flagged for a closer look

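SOCS3 was picked out because the effect of an SCFA on it differed between the orders of treatment by the direct test. Its level was higher by 0.51 on the log2 scale when propionate followed TNF-α than when it came first (TNPR against PRTN, limma-voom adjusted p = 0.038, not called because the fold was under 1.5, and from 0.00995 to 0.445 with a library left out). The difference for butyrate was 0.72 (TNBU against BUTN, adjusted p = 0.00451, called). Both libraries of each later group lay above both libraries of its earlier group. The time since TNF-α moves with the order in both, and its part was not tested.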

How the results depend on the processing

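The members gave 31 calls over 11 comparisons. The settings of unadjusted p and no fold rule only loosen the limits on the main fit, so no call could be lost under them. A library left out often belonged to neither group of a comparison, where its call was tested less directly. Both limits also hold for the partner genes below. Under 11 other settings, 325 of 341 values kept their call, 16 lost it and 0 reversed, and when each of 12 libraries was left out, 368 of 372 kept it, 4 lost it and 0 reversed. The 0 calls in TN against Ctrl held throughout, as did, within 1.5 times, the 10 calls lower against TN and the 8 lower against Ctrl. The 6 calls higher against TN became 10 under scaling by library size alone and 1 with a fold over 2, and the 6 higher against Ctrl became 1 with a fold over 2. After against before TNF-α, the 1 call higher (SOCS3) became 0 with only the groups compared, 2 with no fold rule and 0 with a fold over 2, and ran from 0 to 1 with a library left out, at 0 without either BUTN library. The 0 calls lower became 1 at unadjusted p (SOCS1) and ran from 0 to 1 with a library left out, the 1 being SOCS6 without TNBU replicate 1. With a replicate block the counts were 0, 6, 10, 6, 8, 1 and 0 in the same order, so the block changed no count of calls. Scaling by library size alone and dropping the filter moved the median log2 fold change of all genes by up to 0.196 and 0.195. For the 25 partner genes, tried after the data were seen, 1230 of 1288 values of called pairs kept their call and 0 reversed. STAT4 in TN against Ctrl had an adjusted p of 0.0689 with only the groups compared. The values of SOCS1 rested on 26 to 62 counts a library and those of SOCS2 on 31 to 116.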
